A study of Mus musculus with 6 samples.

Results

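Molars of 2 litters of mice were compared, with both genotypes of the study present in each litter. Litter was taken from the littermate number in the sample labels: 4 of the 6 libraries came from litter 1 and 2 came from litter 2. Controls and mutants were equally many in each: 2 of each genotype in litter 1, numbered below, and 1 of each in litter 2. The mutants were Gli1-CreER;Bmpr1afl/fl and the controls Bmpr1afl/fl, so all 6 libraries came from mice with the floxed alleles of Bmpr1a, the type IA receptor for bone morphogenetic proteins (BMPs). CreER is a recombinase that tamoxifen switches on, here made where Gli1 is active. The labels give neither the tamoxifen schedule nor whether controls received it. All mice were at postnatal day 7.5, on a mixed C57Bl6/129S6/SvEvTac background, and the tissue was the apical part of the dental mesenchyme of the first mandibular molar. The labels do not say how many animals made up a library, and the litters cannot be told apart from dissection, animal or library handling. P-values of the gene tests set the litter difference against the spread left between these 6 libraries after litter and genotype. With 1 litter on each side, they do not carry over to litters in general.

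At this age the crown of the mouse molar is laying down dentin and enamel while the root begins to form at the apical end. Odontoblasts, which line the dental pulp, secrete the dentin matrix, and dentin sialophosphoprotein (Dspp) is their classic marker. Ameloblasts of the dental epithelium secrete the enamel matrix. The apical mesenchyme holds less differentiated cells that respond to hedgehog, Wnt and BMP signals, together with vessels, blood cells and macrophages.

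Levels are in RPM, reads scaled to a library of fixed size, recovered from deposited log2 values. Each library held 15916045 to 20609420 reads on genes, and 3 reads, taken as the detection floor, corresponded to 0.0987 to 0.126 RPM. Differences are litter 2 minus litter 1 on the log2(RPM + 1) scale, with genotype as a covariate. The targeted gene, Bmpr1a, ranged from 108 to 139 RPM in litter 1 and stood at 150 RPM in the litter 2 control and 111 RPM in the litter 2 mutant. The deposited values do not show whether the floxed exon itself was read, so they do not check the deletion. Both litter 2 libraries had 0 reads on Y-linked genes, whereas in litter 1 control 1 (3999 reads) and mutant 1 (3270 reads) had them and the other pair had 0. Sex thus differed in makeup between the litters, and counts over the 4 libraries without Y-linked reads, an alternative chosen after the data were seen, are also given for many of the gene lists.

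Genes that passed the test were mostly lower in litter 2, though few passed and their number depended on the scaling. Of 14444 tested genes, whose mean was at least 1 RPM, 126 (0.872%) changed at a Benjamini-Hochberg adjusted p under 0.05 in limma. Of these, 120 (0.831%) fell and 6 (0.0415%) rose in litter 2, and 114 changed at least 2-fold. The smallest adjusted p was 0.0132 (limma, Benjamini-Hochberg), and 577 genes had one under 0.1. In each of the 126 both litter 2 libraries lay outside the range of the 4 litter 1 libraries with the same sign in both genotypes, which the way they were called nearly fixes, so it is no separate support. Over all tested genes, the sign was the same in both genotypes in 65.0%. The control and mutant differences share no library, and across genes they correlated with Pearson's r of 0.50 and Spearman's rho of 0.52, a description only since genes are not independent. No gene had a litter-by-genotype difference at an adjusted p under 0.05 in limma (0 genes), and 731 (5.06%) did at an unadjusted p.

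**Figure D1:**
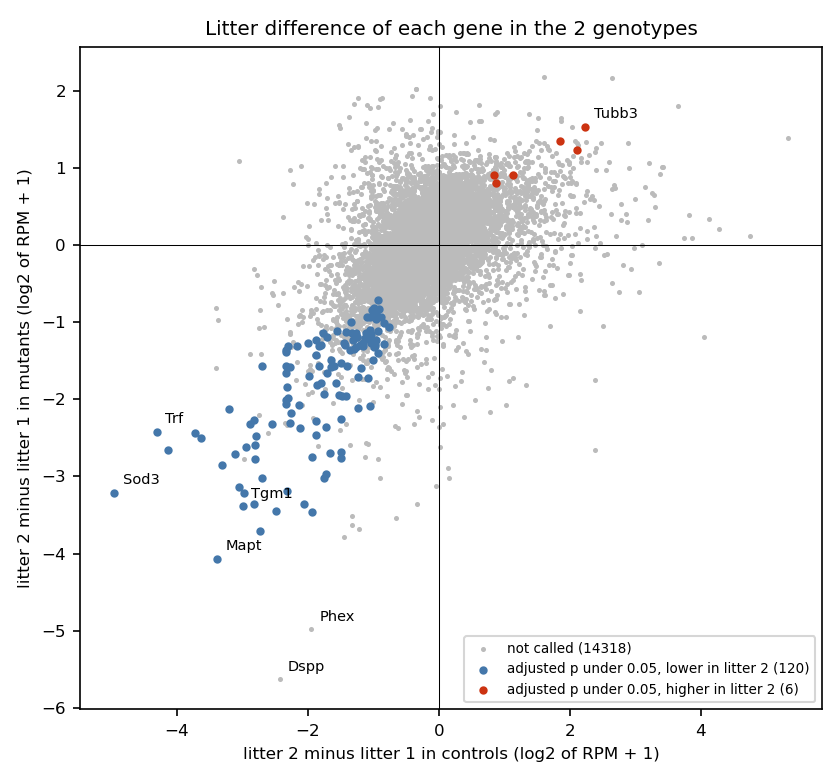
Litter 2 minus litter 1 for each of 14444 tested genes, in controls (horizontal axis) and in mutants (vertical axis), both as log2 of RPM + 1; blue and red points are the 120 lower and 6 higher genes with an adjusted p under 0.05. The coloured points lie in the lower left and upper right, since all 126 had the same sign in both genotypes, and Dspp and Phex lie at the bottom, uncoloured.

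The size of this set depended on single libraries and on the scaling. Leaving out litter 1 control 1 gave 76 genes, litter 1 control 2 51, litter 2 control 22, and litter 1 mutant 1 371. Without litter 1 mutant 2, or without the litter 2 mutant, limma called 0 genes, with 2061 and 2405 at an unadjusted p under 0.05. Median-of-ratios scaling also gave 0 (3987 unadjusted), with a smallest adjusted p of 0.0524 (limma, Benjamini-Hochberg), and upper-quartile scaling and quantile normalization gave 4 each. Over the 4 libraries without Y-linked reads, 1616 genes passed. That setting holds 1 library of each genotype per litter. It also drops litter 1 mutant 1, the library richest in enamel transcripts, so it changes more than the makeup by sex. All 126 genes kept their direction in every one of these settings.

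A looser rule was used to count genes of the lists described below: an unadjusted p under 0.05 in limma, with both litter 2 libraries outside the litter 1 range. By that rule 939 genes (6.5%) were higher in litter 2 and 1896 (13.1%) were lower. The lower genes made up 66.9% of these calls, but 55.2% with median-of-ratios scaling, 56.0% with upper-quartile scaling, 52.2% with quantile normalization and 56.4% with the enamel level as a covariate. Without a test, both litter 2 libraries lay above all of litter 1 for 2166 genes (15%) and below it for 2968 (20.5%). Against these shares the count in each list is read. They hold for all 6 libraries, and list counts in other settings have their own background. Of the 14444 genes, the rule gave 1553 higher and 2889 lower over the libraries without Y-linked reads. It gave 1097 and 2980 without litter 1 mutant 1, and 1010 and 1557 without litter 1 control 1. Without litter 1 control 2 it gave 447 and 1235, without litter 1 mutant 2 722 and 1265, and with median-of-ratios scaling 1718 and 2117.

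The gene that fell furthest was Sod3, the extracellular superoxide dismutase (chr5:52363804-52369738, GRCm38). It stood at 73.0, 127, 79.2 and 135 RPM in litter 1 controls 1 and 2 and mutants 1 and 2, and at 2.12 and 10.3 RPM in the litter 2 control and mutant. Its mean was 103 ± 31.7 RPM (SD, n = 4) in litter 1 and 6.19 ± 5.76 RPM (SD, n = 2) in litter 2. The difference was -4.09 ± 0.45 (SE), with an adjusted p of 0.0336 (limma, Benjamini-Hochberg). The litters did not overlap, and the highest litter 2 value was far below the lowest of litter 1.

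Mapt, which codes for the microtubule-binding protein tau (chr11:104229409-104332090), stood at 24.6, 31.0, 43.0 and 24.7 RPM in litter 1 and at 1.73 and 1.01 RPM in the litter 2 control and mutant, a difference of -3.73 ± 0.28 (SE). Its adjusted p was 0.0203 (limma, Benjamini-Hochberg), and the litters were far apart. Tgm1, a transglutaminase that cross-links proteins (chr14:55700009-55713921), had the smallest p of all genes. It stood at 27.2, 21.4, 23.7 and 29.7 RPM in litter 1 and at 2.15 and 1.63 RPM in litter 2, a difference of -3.19 ± 0.19 (SE; adjusted p = 0.0132, limma, Benjamini-Hochberg). The 4 litter 1 values of Tgm1 were close together, as were the litter 2 pair.

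Trf, the plasma iron carrier transferrin (chr9:103208876-103230286), was the most abundant of the 12 called genes with the largest drops. It stood at 484, 727, 416 and 796 RPM in litter 1, and at 29.0 and 107 RPM in the litter 2 control and mutant (difference -3.36 ± 0.47 SE). Prelp, a leucine-rich proteoglycan of the matrix, stood at 76.9, 161, 85.8 and 126 RPM in litter 1 and at 5.37 and 15.6 RPM in litter 2 (-3.40). For Sod3, Prelp and Trf the litter 2 control was the lowest library, and for Mapt and Tgm1 the litter 2 mutant was. Cldn10, a tight-junction claudin, differed by -3.10, Tnfaip2, a gene induced by tumour necrosis factor, by -3.09, and the membrane protein gene Slitrk6 by -2.91. Nav3, which codes for a microtubule-associated protein, differed by -2.97, and Slc38a11, an amino acid transporter gene, by -3.22. Pamr1 (-3.08) and Creg2 (-3.10) complete the 12 called genes. Creg2 was at 4.79 to 14.7 RPM in litter 1 and at 0.106 and 0.0838 RPM in litter 2, at or under the floor of 3 reads in both, so its fitted difference depends on the pseudocount.

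**Figure D2:**
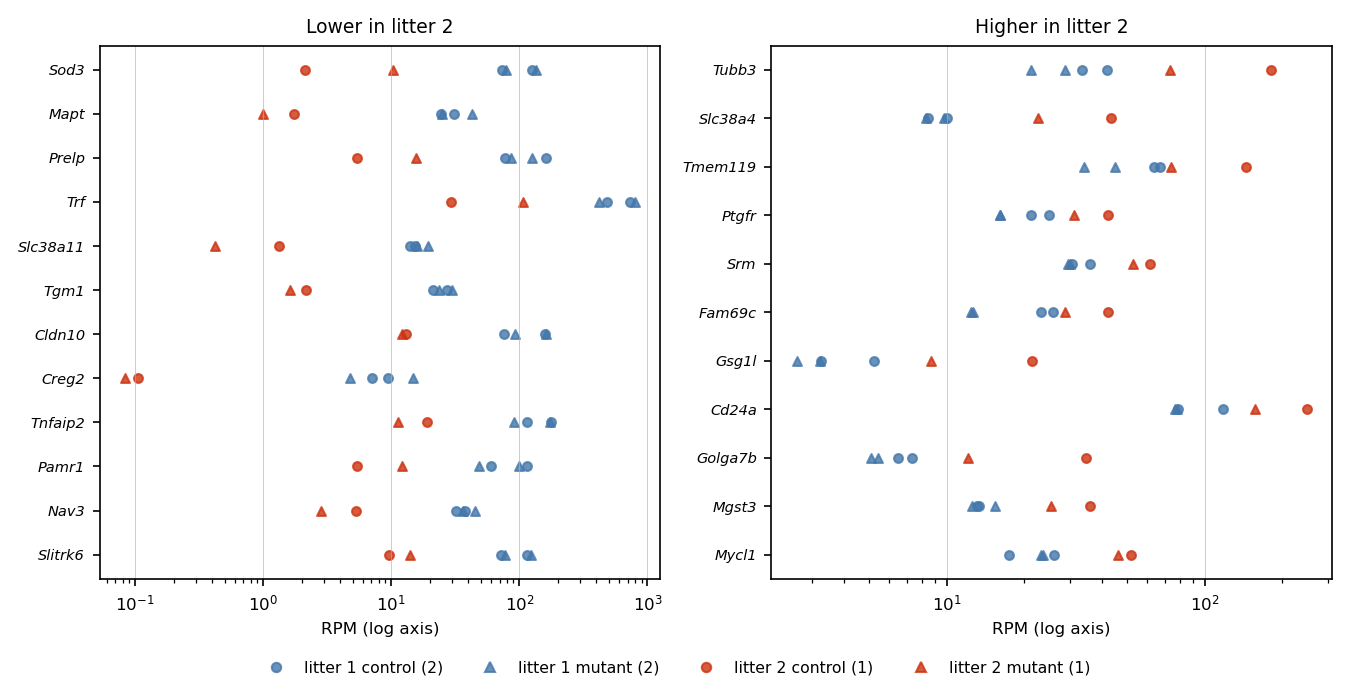
Level of 23 genes in each library, in RPM on a log axis: the 12 genes with the largest drops in litter 2 among those that passed the adjusted threshold (left) and 11 higher genes (right), of which the first 5 passed the adjusted threshold. Blue is litter 1 and red litter 2, circles are controls and triangles mutants. In every gene both red points lie outside the range of the blue ones, since genes were picked only where they do.

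Far fewer genes rose in litter 2 at the adjusted threshold, 6 in all, of which 5 are described. Tubb3, a beta-tubulin best known from neurons (chr8:123411553-123422015), stood at 41.7, 33.5, 21.2 and 28.6 RPM in litter 1 and at 180 and 73.4 RPM in the litter 2 control and mutant. The difference was 1.89 ± 0.22 (SE), with an adjusted p of 0.0337 (limma, Benjamini-Hochberg). Both litter 2 values lay above every litter 1 value, the control more so than the mutant.

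Slc38a4, an amino acid transporter gene, ranged from 8.35 to 10.04 RPM in litter 1 and reached 43.3 and 22.6 RPM in litter 2 (1.68). The litter 2 control was the highest library and the litter 2 mutant the next. Tmem119, a membrane protein gene expressed in osteoblasts and microglia, rose by 1.02, Ptgfr, the receptor for prostaglandin F2 alpha, by 0.88, and Srm, spermidine synthase, by 0.84. For Tmem119 the margin was small: the litter 2 mutant had 74.3 RPM and litter 1 control 1 had 67.1 RPM.

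Among genes whose litters did not overlap, the next 6 higher genes by p did not pass, with adjusted p from 0.0502 to 0.0564 (limma, Benjamini-Hochberg). They were Gsg1l (1.72), Golga7b (1.63), the surface glycoprotein gene Cd24a (1.18), the glutathione transferase gene Mgst3 (1.10), the Myc family gene Mycl1 (1.09) and Fam69c (0.95). Cd24a stood at 117 RPM in litter 1 control 1 and at 76.6 to 78.6 RPM in the other litter 1 libraries, against 248 and 156 RPM in litter 2. That all 6 were higher in both litter 2 libraries than in any of litter 1 follows from how they were picked.

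Dspp (chr5:104170703-104180127) showed a difference as large as that of Sod3 but did not pass the adjusted threshold. It stood at 4032 and 4844 RPM in litter 1 controls 1 and 2, at 6872 and 4642 RPM in litter 1 mutants 1 and 2, at 817 RPM in the litter 2 control and at 113 RPM in the litter 2 mutant. The difference was -4.03 ± 0.71 (SE), with an adjusted p of 0.0629 (limma, Benjamini-Hochberg; unadjusted 9.58e-04). Both litter 2 libraries were far below litter 1, and the litter 2 mutant was far below the litter 2 control. The difference was -2.43 in controls and -5.63 in mutants. In the 20 alternative settings it kept its direction and had an adjusted p under 0.05 in 4 (limma, Benjamini-Hochberg).

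Of 8 odontoblast genes tested, 3 met the looser rule as lower in litter 2 (against 13.1% of all genes), 0 as higher, and 0 passed the adjusted threshold. Besides Dspp these were Phex, an endopeptidase needed for normal mineralization, and Nes, the intermediate filament nestin. Phex stood at 387, 498, 725 and 507 RPM in litter 1 and at 113 and 18.2 RPM in the litter 2 control and mutant (-3.47 ± 0.63 SE; adjusted p = 0.0657, limma, Benjamini-Hochberg). Nes stood at 454, 543, 535 and 459 RPM in litter 1 and at 288 and 164 RPM in litter 2 (-1.19). In all 3 genes the litter 2 mutant was the lowest library and the litter 2 control the next. Without the litter 2 mutant, or over the libraries without Y-linked reads, 2 odontoblast genes also met the looser rule as higher.

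The other odontoblast genes did not follow. Dmp1, an acidic matrix protein gene shared with osteocytes, was at 5.33 to 18.9 RPM in litter 1 and at 88.7 RPM in the litter 2 control, while the litter 2 mutant, at 15.2 RPM, lay within litter 1. Smpd3, a sphingomyelinase gene, likewise reached 458 RPM in the litter 2 control, against 64.7 to 184 RPM in litter 1 and 168 RPM in the litter 2 mutant. The transcription factor genes Sp7 (-0.12) and Dlx3 (-0.07) and the ligand gene Wnt10a (0.28) overlapped between litters. The list's median difference was therefore -0.09, beside -0.03 for all tested genes (with 1 library left out, from -0.30 without the litter 2 control to 0.11 without the litter 2 mutant), although its summed level, most of it Dspp in litter 1, was 5398 to 8538 RPM in litter 1 and 2192 and 780 RPM in litter 2. In bulk tissue, fewer cells of a type and less RNA per cell cannot be told apart.

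Bone matrix genes varied within both litters. Their summed level was 16510 to 30881 RPM in litter 1, 16160 RPM in the litter 2 control and 5372 RPM in the litter 2 mutant. Col1a1, the alpha 1 chain of type I collagen, was at 15516 to 28920 RPM in litter 1 and at 14403 and 4871 RPM in litter 2, and did not pass (adjusted p = 0.487, limma, Benjamini-Hochberg). Bglap, osteocalcin, was at 279 to 831 RPM in litter 1, at 437 RPM in the litter 2 control and at 86.8 RPM in the litter 2 mutant. Ifitm5, an osteoblast membrane protein gene, was the single member of 8 that met the looser rule, as higher (6.5% of all genes). It was at 2.50 to 5.53 RPM in litter 1 and at 45.2 and 6.33 RPM in litter 2. Spp1, osteopontin, was at 159 RPM in the litter 2 control and 96.1 RPM in litter 1 control 2, and at 3.36 to 5.196 RPM in the other 4 libraries. The litter 2 mutant was the lowest library for Col1a1 and Bglap. Without the litter 2 control, 3 bone matrix genes met the looser rule as lower, and without litter 1 control 1, or over the libraries without Y-linked reads, 2 did. Without the litter 2 mutant, or without litter 1 control 2, 2 met it as higher, and the list's median of -0.07 ranged from -0.51 without the litter 2 control to 0.37 without the litter 2 mutant.

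**Figure D3:**
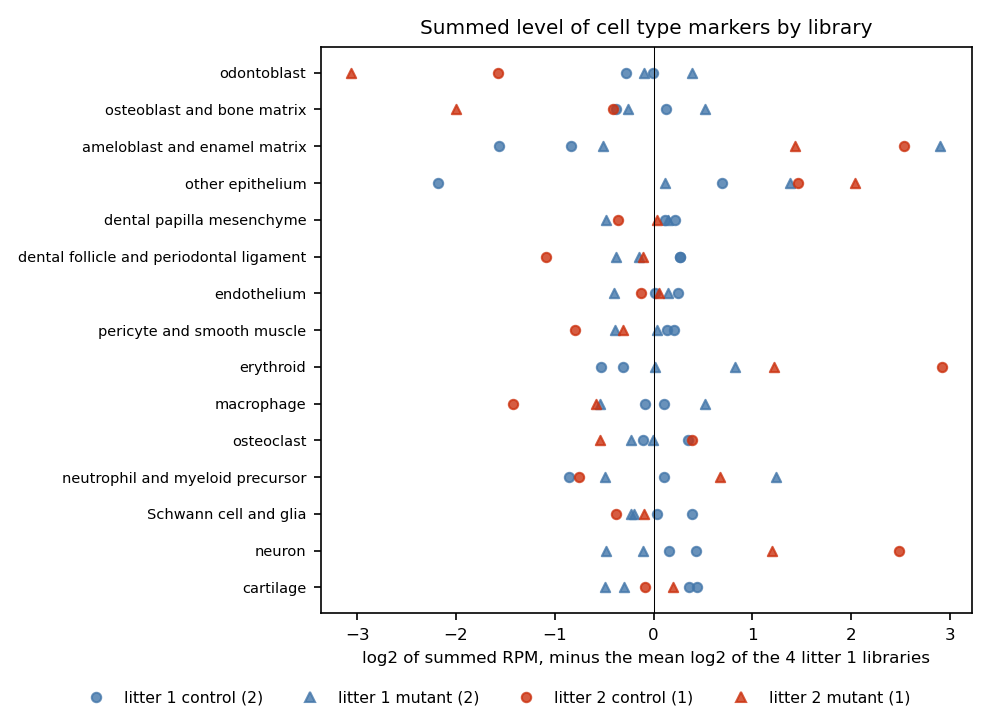
Summed RPM of the markers of 15 cell types in each library, as log2 minus the mean log2 of the 4 litter 1 libraries; blue is litter 1, red litter 2, circles controls and triangles mutants. Both red points lie below all blue points for odontoblast, bone matrix and macrophage markers and above them for other epithelium, erythroid and neuron markers, while the summed enamel level is high in both litter 2 libraries and in litter 1 mutant 1.

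Although the tissue was labelled mesenchyme, enamel and other epithelial transcripts were present in all 6 libraries. The 7 enamel genes summed to 3562 and 2143 RPM in litter 1 controls 1 and 2, 47440 and 4454 RPM in litter 1 mutants 1 and 2, and 36754 and 17083 RPM in the litter 2 control and mutant. The summed level was thus high in litter 2, but below litter 1 mutant 1. Of the 7 enamel genes 5 were higher and 2 lower in litter 2, and 0 met either rule. Without the litter 2 mutant, 7 were higher and 0 lower. Amelx, amelogenin, had 23480 RPM in litter 1 mutant 1, 876 to 2526 RPM in the rest of litter 1, and 19794 and 10097 RPM in litter 2 (2.11; adjusted p = 0.353, limma, Benjamini-Hochberg). The 2 with lower values were the enamel proteases. Mmp20 had 102 to 287 RPM in litter 1 and 109 and 37.0 RPM in the litter 2 control and mutant (-1.18), and Klk4 had 12.8 to 71.9 RPM and then 98.4 and 4.02 RPM (-0.14). Without litter 1 mutant 1, or over the libraries without Y-linked reads, 5 of 7 enamel genes met the looser rule, all as higher. Without the litter 2 control, 2 met it as lower and the list's median went from 1.98 to 0.10 (0.98 without litter 1 mutant 2, 3.04 without litter 1 mutant 1 and 3.83 without the litter 2 mutant). A single enamel gene met it as lower without litter 1 control 1, and 1 as higher without the litter 2 mutant. With the mean enamel level as a covariate the number of genes called over the whole table was 1, while unadjusted calls went from 3026 to 3893 and all 126 genes kept their direction. The part of epithelial RNA in the other differences was not tested beyond that covariate.

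Of 9 other epithelial genes, all 9 were higher in litter 2, 4 without overlap (15% of all genes) and 2 by the looser rule, with a median of 1.79. Krt14, a keratin of basal epithelium, was at 436, 81.5, 856 and 289 RPM in litter 1 and at 990 and 1154 RPM in litter 2 (1.80; adjusted p = 0.236, limma, Benjamini-Hochberg). Cdh1, E-cadherin, was at 15.5 to 124 RPM in litter 1 and at 218 and 221 RPM in litter 2. Litter 1 control 2 was lowest in both genes, and the litter 1 spread was wide. The count of 2 was 0 without the litter 2 control or litter 1 mutant 2, 1 without the litter 2 mutant, 4 without litter 1 control 1 or litter 1 mutant 1, and 8 over the libraries without Y-linked reads. It was also 0 with median-of-ratios scaling, quantile normalization, the enamel covariate or no filter on low values, and the median was 1.06 without litter 1 control 2.

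Mesenchymal and vascular lists held members on either side. Notch3, a Notch receptor of pericytes and smooth muscle (chr17:32120820-32166896), fell: it stood at 161, 174, 115 and 167 RPM in litter 1 and at 33.2 and 55.6 RPM in litter 2 (-1.80 ± 0.26 SE; adjusted p = 0.0478, limma, Benjamini-Hochberg). In its list of 6 tested genes, 3 met the looser rule in the other direction, against 6.5% of all genes. These were Acta2, smooth muscle actin (23.3 to 32.3 RPM in litter 1, 51.1 and 44.3 RPM in litter 2), Tagln (0.89) and the proteoglycan gene Cspg4 (0.84). The list thus held members on both sides without overlap between litters.

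Msx1, a homeobox gene of the dental papilla, was at 174 to 305 RPM in litter 1 and at 91.2 and 129 RPM in litter 2 (-1.16; adjusted p = 0.113, limma, Benjamini-Hochberg), while Dlx2 was slightly higher (0.57). These were the 2 of 7 papilla genes that met the looser rule, which 6.5% of all genes met as higher and 13.1% as lower. The papilla, follicle and endothelial counts stood near these shares. Of 8 follicle and ligament genes 1 was lower, the collagen gene Col12a1 (-0.76), and 1 higher, the tendon gene Tnmd (0.83). Fmod, a collagen-binding proteoglycan gene, was at 392 to 940 RPM in litter 1, 97.0 RPM in the litter 2 control and 434 RPM in the litter 2 mutant, which lay within litter 1. Of 8 endothelial genes 1 was lower by the looser rule and 0 higher, with a median of 0.01. With the litter 2 mutant left out all 8 were lower (median -0.20), and without the litter 2 control 6 of 8 were higher (0.20). The looser rule then gave 0 endothelial genes without the litter 2 mutant, and 1 higher and 0 lower without the litter 2 control. Without litter 1 control 1, 4 papilla genes and 4 follicle genes met the looser rule, and without the litter 2 control 0 papilla genes did. Over the libraries without Y-linked reads, 4 papilla and 5 follicle genes did.

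Red cell and macrophage transcripts lay on opposite sides. All 6 erythroid genes tested were higher in litter 2 without overlap, and 5 met the looser rule (6.5% of all genes), while 0 passed the adjusted threshold. Hba-a2, an alpha globin gene, was at 46.5, 58.9, 68.8 and 117 RPM in litter 1 and at 567 and 182 RPM in litter 2 (2.21; adjusted p = 0.105, limma, Benjamini-Hochberg). Alas2, the erythroid enzyme of haem synthesis, was at 3.08 to 5.59 RPM in litter 1 and at 25.2 and 8.004 RPM in litter 2. The globin genes have near-identical copies, so how reads were divided among them is uncertain. The litter 2 control was the highest library in each, and without it 2 erythroid genes met the looser rule and the median went from 1.97 to 0.70 (3.28 without the litter 2 mutant).

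Macrophage genes were lower in litter 2 in 9 of 9, with a median of -0.93, and 5 met the looser rule (13.1% of all genes). Cd163, a scavenger receptor for haemoglobin, was at 30.6, 27.5, 15.4 and 32.8 RPM in litter 1 and at 1.91 and 11.1 RPM in litter 2 (-2.17; adjusted p = 0.119, limma, Benjamini-Hochberg). Mrc1, the mannose receptor, was at 62.8 to 156 RPM in litter 1 and at 28.0 and 67.6 RPM in litter 2, where the litter 2 mutant lay just inside the litter 1 range. Csf1r, the receptor for colony stimulating factor 1, was at 93.9 to 186 RPM in litter 1 and at 56.9 and 88.6 RPM in litter 2. The litter 2 control was the lowest library in all 3. The median was -0.51 without the litter 2 control. The count of 5 was 0 without the litter 2 control, 2 without litter 1 mutant 2, and 9 without litter 1 mutant 1, with median-of-ratios scaling or over the 4 libraries without Y-linked reads.

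Interferon response genes followed the same course: 8 of 9 were lower and 5 met the looser rule (13.1% of all genes), with a median of -0.85 (-0.41 without the litter 2 control). Ifit3, an interferon-induced antiviral gene, was at 4.26 to 7.83 RPM in litter 1 and at 0.600 and 2.05 RPM in litter 2 (-1.70; adjusted p = 0.0747, limma, Benjamini-Hochberg), and Oasl2 was at 9.13 to 17.8 RPM and at 4.66 and 7.84 RPM. The count of 5 was 1 without the litter 2 control or without litter 1 mutant 2, 3 without litter 1 control 2, and 8 over the libraries without Y-linked reads.

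Over 17 cell type lists, the summed levels of the litters did not overlap in 7, 4 lower and 3 higher in litter 2. The adipocyte list, lower, summed to under 2 RPM in every library. The neuron list was higher, at 23.9 to 44.8 RPM in litter 1 and 186 and 76.3 RPM in litter 2, of which Tubb3 made up nearly all. Where the litters did not overlap in either direction, the exact two-sided permutation test over the 15 ways to choose 2 of 6 libraries gave at best p = 0.0667, the smallest it can give (0.227 after Benjamini-Hochberg adjustment over the lists), so this test could not pass 0.05.

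**Figure D4:**
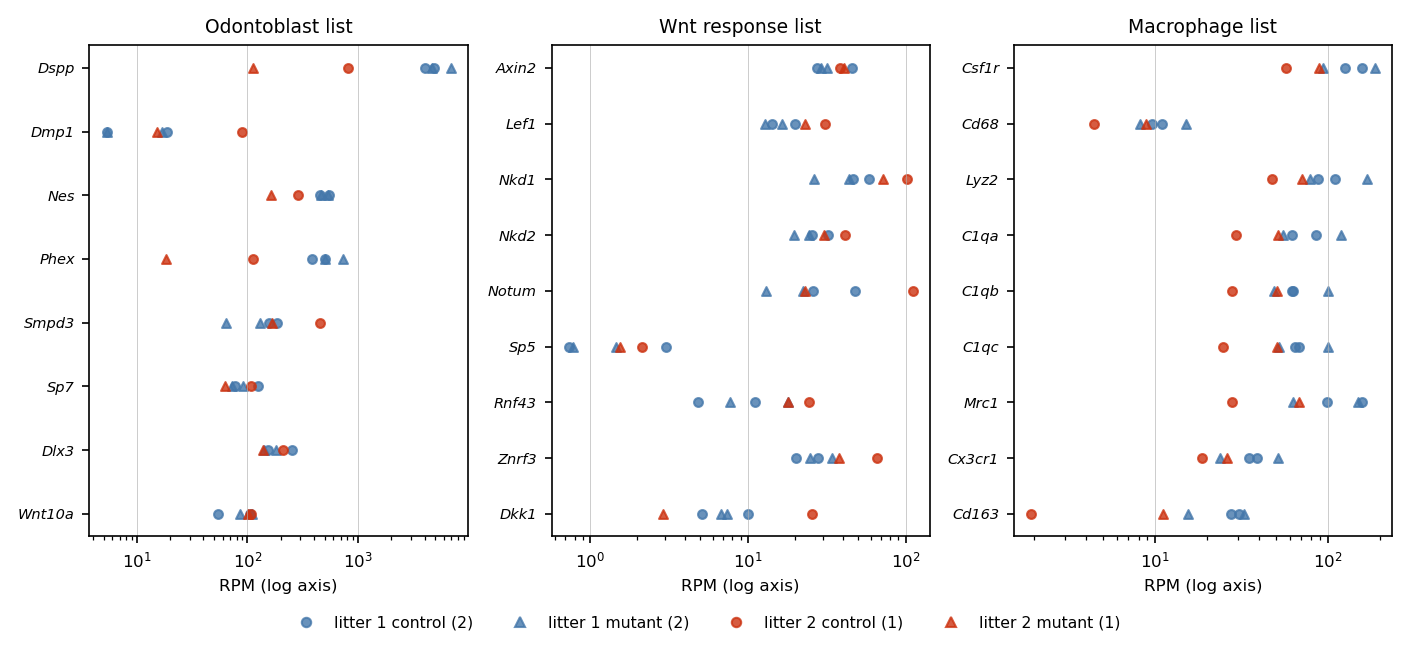
Levels of the tested genes of the odontoblast, Wnt response and macrophage lists in each library, in RPM on a log axis; blue is litter 1, red litter 2, circles controls and triangles mutants. Dspp, Phex and Nes are the odontoblast genes with both red points below all blue ones, all 9 macrophage genes have a low litter 2 control, and Nkd1, Rnf43, Znrf3 and Lef1 have both red points above all blue ones.

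Signalling targets were read from 3 lists. Of 9 Wnt response genes all 9 were higher in litter 2, with a median of 0.73, and 4 met the looser rule (6.5% of all genes): Nkd1, an intracellular inhibitor of the pathway, Rnf43 and Znrf3, ligases that remove Wnt receptors, and Lef1, a transcription factor of the pathway. Nkd1 was at 58.5, 46.3, 26.3 and 43.5 RPM in litter 1 and at 102 and 72.1 RPM in litter 2 (1.01 ± 0.22 SE; adjusted p = 0.0880, limma, Benjamini-Hochberg). Notum, a secreted enzyme that inactivates Wnt ligands, was at 111 RPM in the litter 2 control, but its litter 2 mutant (23.0 RPM) lay within litter 1 (13.1 to 47.6 RPM). Axin2, the common readout of the pathway, overlapped between litters (0.25). Without the litter 2 control the median was 0.41, and 1 gene met the looser rule as higher and 1 as lower, and with median-of-ratios scaling 2 did as higher. Over the libraries without Y-linked reads 6 did as higher.

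Hedgehog targets leaned the same way, with 7 of 8 higher and a median of 0.42, but 2 lay without overlap (15% of all genes) and 1 met the looser rule (6.5%), near the background. That count was 0 without the litter 2 control or litter 1 mutant 2, 2 without litter 1 mutant 1, 3 without litter 1 control 1 or the litter 2 mutant, and 4 over the libraries without Y-linked reads. Gli1, the transcription factor whose locus drives CreER in the mutants, was at 34.9 and 30.4 RPM in litter 1 controls, 28.7 and 19.8 RPM in litter 1 mutants, 63.7 RPM in the litter 2 control and 26.6 RPM in the litter 2 mutant (0.55; adjusted p = 0.247, limma, Benjamini-Hochberg). The litter 2 mutant lay within litter 1 for Gli1. Of 8 BMP response genes, 2 inhibitors of the pathway met the looser rule as lower, Smad6 (-0.71) and Smad7 (-0.43), and 0 as higher, with a median of -0.12. Smad6 was at 126 to 254 RPM in litter 1 and at 114 and 104 RPM in litter 2. With 2 of 8 beside 13.1% of all genes, the BMP list stood little apart from the background. The 2 lower calls became 0 without litter 1 control 2 or the litter 2 mutant, and 1 without the litter 2 control or litter 1 mutant 2, or with median-of-ratios, upper-quartile or quantile scaling. The BMP median was 0.08 without the litter 2 mutant, -0.32 without the litter 2 control and -0.03 without litter 1 control 2.

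Cholesterol synthesis genes were higher in litter 2 in 9 of 9, with a median of 0.58, and 7 met the looser rule (6.5% of all genes) while 0 passed the adjusted threshold. Sqle, squalene epoxidase, was at 23.5, 13.5, 20.7 and 15.7 RPM in litter 1 and at 41.4 and 33.8 RPM in litter 2 (1.02; adjusted p = 0.107, limma, Benjamini-Hochberg). Fdps, farnesyl diphosphate synthase, was at 2.87 to 3.29 RPM and at 7.77 and 4.78 RPM. Both litter 2 libraries were above all of litter 1 in these genes, the control highest. Insig1 (0.19) and Lss (0.05) overlapped. The count of 7 was 2 without the litter 2 control and 4 without the litter 2 mutant.

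Promoters of this list were read because its members lay on the same side, a choice made after their values were seen. Genes of sterol synthesis are known to use the factor NF-Y, which binds the CCAAT box. That motif was searched on both strands, reading ATTGG on the other, in the 250 bases before each start site in RefSeq's GRCm38.p6 promoter table, and a gene was counted if any of its start sites had a match. All 5 of the 9 genes with an entry held it, as did 40.4% of 9764 tested genes and 18 of 60 ribosomal protein genes (30%) with an entry. Dhcr7 was counted through 1 start site, while its other listed sites held no match. The 5 include Insig1 and Lss, whose levels overlapped between litters. A match describes letters only. The stretch from position -120 to -1 before the start is shown, on the plus strand, for Hmgcs1, an early synthase of the pathway (chr13:119690231-119690350), and Idi1, an isomerase of the pathway (chr13:8885486-8885605), with the motif in capitals.
Hmgcs1: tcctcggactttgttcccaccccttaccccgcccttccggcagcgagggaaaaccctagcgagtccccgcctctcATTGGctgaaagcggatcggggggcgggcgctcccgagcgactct
Idi1: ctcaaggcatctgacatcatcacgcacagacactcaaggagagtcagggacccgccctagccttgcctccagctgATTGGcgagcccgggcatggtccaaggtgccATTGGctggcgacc
Hmgcs1 was at 34.6 to 56.4 RPM in litter 1 and at 61.0 and 61.1 RPM in litter 2, and Idi1 at 2.74 to 5.50 RPM and at 7.98 and 6.33 RPM. Both had litter 2 above all of litter 1.

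Cytosolic ribosomal protein genes were nearly all on one side. Of 82 tested, 81 were higher in litter 2, 68 without overlap (15% of all genes) and 37 by the looser rule (6.5%), and 0 passed the adjusted threshold. The shift was small, with a median of 0.38, and alike in controls (0.38) and mutants (0.36). Their summed level was 14449, 12886, 12040 and 15276 RPM in litter 1 and 18189 and 17608 RPM in litter 2. The median stayed between 0.31 and 0.45 in the 20 alternative settings, whereas the count by the looser rule did not. It was 3 without the litter 2 control, 6 without the litter 2 mutant, 8 without litter 1 control 2, 20 without litter 1 control 1, 18 with Xist as a covariate, 22 over the libraries without Y-linked reads, and 64 with median-of-ratios scaling.

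Rps26, a small-subunit protein gene, had the smallest p of the group and stood at 125, 124, 104 and 127 RPM in litter 1 and at 180 and 176 RPM in litter 2 (0.57 ± 0.14 SE; adjusted p = 0.106, limma, Benjamini-Hochberg). Rpl28, a large-subunit protein gene, was at 39.6 to 44.5 RPM and at 58.0 and 55.4 RPM. The exception among the 82 was Rpl39l (-0.17), the testis-type copy of Rpl39. Rpl29 differed by 0.74, but litter 1 control 1 (61.1 RPM) and the litter 2 control (72.1 RPM) stood apart from the other 4 libraries (12.5 to 17.4 RPM). Many ribosomal protein genes have near-identical processed copies, so the counting of their reads is uncertain.

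**Figure D5:**
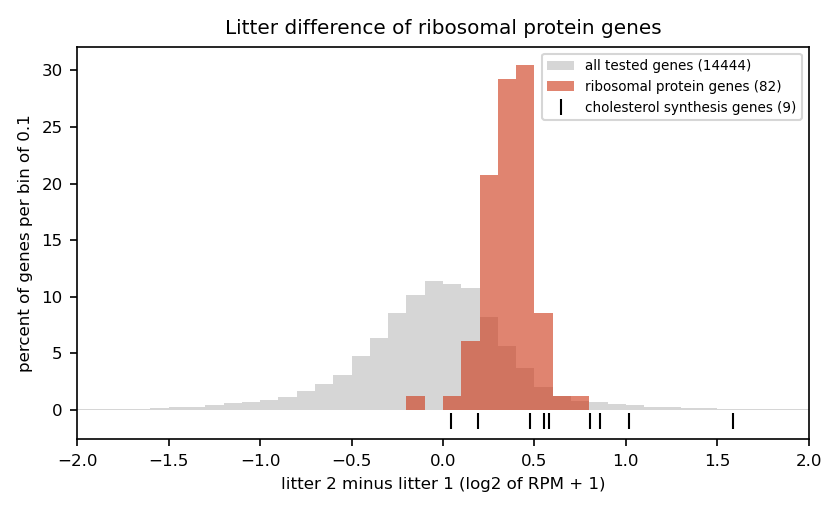
Distribution of the litter difference (log2 of RPM + 1, litter 2 minus litter 1) as percent of genes per bin of 0.1, for 14444 tested genes in grey and 82 ribosomal protein genes in red; ticks under the axis are 9 cholesterol synthesis genes. The red bars lie to the right of 0 for 81 of 82 genes, around their median of 0.38, and all 9 ticks are above 0.

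Transcripts of ribosomal proteins are known for a pyrimidine tract at their first bases, which couples their translation to growth signals. A C at the start site followed by at least 4 C or T was found at a start site of 13 of 60 ribosomal protein genes with an entry (21.7%), and of 304 of 9764 tested genes with one (3.11%). The annotated start can miss the true one, so no match says only that these letters are not there. Of the 13, the 4 with the smallest p for the litter difference are shown from position -40 to +15, with the tract in capitals: Rpl28 (chr7:4792925-4792979, plus strand), Rpl35a (chr16:33056442-33056496, plus), Rps6 (chr4:86857353-86857407, minus) and Rplp2 (chr7:141447611-141447665, plus).
Rpl28: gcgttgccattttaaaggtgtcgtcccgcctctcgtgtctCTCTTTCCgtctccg
Rpl35a: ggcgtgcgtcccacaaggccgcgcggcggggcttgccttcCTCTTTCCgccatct
Rps6: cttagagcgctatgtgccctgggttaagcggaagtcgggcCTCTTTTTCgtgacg
Rplp2: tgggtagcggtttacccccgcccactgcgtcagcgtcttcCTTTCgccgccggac
The data measure transcript levels and not translation, and whether the tract goes with the size of the difference was not tested.

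Of the growth and stress lists, all 12 proliferation genes were higher in litter 2 (median 0.41), but 1 without overlap and 0 by either rule. Their median was 0.12, with 10 of 12 higher, without the litter 2 mutant, 0.73 without the litter 2 control and 0.27 without litter 1 mutant 1. When litter 1 control 1 was left out, and over the libraries without Y-linked reads, 7 met the looser rule. Heat shock genes were higher in 8 of 8 (median 0.34), 3 by the looser rule (6.5% of all genes): Hspe1 and Hspd1, the mitochondrial chaperonins, and Hsph1. Hspe1 was at 27.5 to 36.3 RPM in litter 1 and at 47.0 and 47.8 RPM in litter 2, and the heat shock count was 1 without the litter 2 control. Of 10 hypoxia and glycolysis genes 4 were higher and 1 lower by the looser rule (6.5% and 13.1% of all genes). Slc2a1, the glucose transporter GLUT1, was at 11.4 to 27.8 RPM and at 33.9 and 45.5 RPM, whereas Vegfa, the vascular growth factor, was at 32.3 to 37.4 RPM and at 30.1 and 17.9 RPM. The summed level of the hypoxia list was 317 to 334 RPM in litter 1 and 431 and 411 RPM in litter 2, without overlap, with 6 of 10 genes higher and a median of 0.38 (0.19 without the litter 2 mutant). Its count of 5 was 3 without litter 1 control 2 or litter 1 mutant 2, 2 without the litter 2 control or with the Xist level as a covariate, and 1 without the litter 2 mutant.

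Clock genes were lower in litter 2 in 12 of 14 (median -0.40; -0.15 without the litter 2 control, -0.64 without the litter 2 mutant), and 5 met the looser rule (13.1% of all genes). Per3, a period gene, was at 28.4, 43.8, 30.7 and 29.6 RPM in litter 1 and at 12.6 and 20.4 RPM in litter 2 (-0.98; adjusted p = 0.125, limma, Benjamini-Hochberg). Npas2, a partner of Bmal1, was at 5.61 to 11.6 RPM and at 1.48 and 4.69 RPM. Arntl, which codes for Bmal1, and Per1 overlapped between litters (-0.10 and 0.09). The count of 5 was 0 without the litter 2 control, 2 without litter 1 control 2, 3 without litter 1 mutant 2, 8 without litter 1 mutant 1 and 9 without the litter 2 mutant or over the libraries without Y-linked reads.

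Pdk4, the kinase that inhibits pyruvate dehydrogenase and a target of glucocorticoids and fasting (chr6:5483351-5496278), fell. It stood at 45.9, 81.6, 58.8 and 72.1 RPM in litter 1 and at 16.2 and 17.9 RPM in litter 2 (-1.83 ± 0.23 SE; adjusted p = 0.0420, limma, Benjamini-Hochberg). Both litter 2 libraries were alike. Fkbp5, another glucocorticoid target, was at 13.4 to 19.1 RPM and at 8.37 and 10.1 RPM (-0.72), while the metallothionein genes Mt1 (0.69) and Mt2 (1.46) were higher, so 2 of 7 listed genes met the looser rule in each direction (1 lower and 0 higher without the litter 2 control). Over all lists, 324 genes were tested, and 3 passed the adjusted threshold, Tubb3, Notch3 and Pdk4. The looser rule was met by 74 as higher and 31 as lower (6.5% and 13.1% of all genes). Ribosomal protein genes made up 82 of the 324 and 37 of the 74.

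Cartilage genes differed in sign between the genotypes. Col2a1, the collagen of cartilage, was at 31.8 and 19.3 RPM in litter 1 controls against 14.97 RPM in the litter 2 control, and at 8.49 and 6.02 RPM in litter 1 mutants against 23.5 RPM in the litter 2 mutant. Acan, aggrecan, and Col9a1 had the same pattern. For each, the litter-by-genotype term did not pass (adjusted p from 0.616 to 0.716, limma, Benjamini-Hochberg), and the levels were low.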

How the data were processed

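Libraries were made from poly(A) RNA and read on an Illumina NextSeq 500, as the labels' protocols state. TopHat2 and the mouse build mm10 are named in the submitters' processing notes. How reads were counted is not given in the sources used here. The authors deposited 1 table, with 25899 symbols and 6 sample columns, that holds log2 values and calls them normalized RPKM. Raised as powers of 2, 99.98% to 100% of the values of each column were whole multiples (within 0.1 of a read) of a single step shared by all genes, whatever their length. They were therefore treated as RPM, a denominator inferred and not stated. Genes without reads hold 0.9 of 1 read. No other sample's column was in the table.

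Tests used genes whose mean reached 1 RPM and their log2(RPM + 1) values, in limma 3.58.1 under R 4.3.3 (lmFit, eBayes with a mean-variance trend), with litter and genotype as terms, two-sided, with Benjamini-Hochberg adjustment over all tested genes. Fold changes on this scale understate the change of low genes. The method was tested on simulated data. The planned test assumed the linear values of the table and was applied to RPM. The members and gene lists were chosen with earlier results of these data known. Genes are named by rule, with numbered gene models left out. First come the 12 called genes with the largest difference in each direction, filled up by p. Only genes whose litters do not overlap were eligible for these. Then come up to 4 genes a list by size of the difference. The other genes named were chosen after their values were seen. Some genes are not reported here, though the counts over lists and over all genes hold them. Coordinates come from RefSeq's GRCm38 gene table, which holds 86.8% of the symbols tested. No pair of libraries agreed within sampling noise. Intervals for counting error are not given, since reads lacking molecular identifiers do not count molecules. Alternatives changed the pseudocount (0.1 or 0.5), the filter on low values (none, or a mean of at least 5), the scaling, the variance model and the covariates, used voom, or left out a library.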

Additional observations from a re-analysis of the deposited data

Results flagged for a closer look

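In 10 genes, 1 litter 1 library stood apart from the other 3 by Dixon's test, which flags about 1 group in 20 by chance, and 100 genes were tested. Litter 1 mutant 1 was high for 4 enamel genes: Amelx (23480 RPM, against 876 to 2526), Enam (4002 RPM, against 133 to 223), Odam (662 RPM, against 5.26 to 15.7) and Amtn (535 RPM, against 2.86 to 14.9). It was low for Rps26 (104 RPM, against 124 to 127). Litter 1 control 1 was high for Cd24a (117 RPM, against 76.6 to 78.6), Rpl29 (61.1 RPM, against 12.5 to 16.8) and Srm (35.8 RPM, against 29.5 to 30.5). Litter 1 control 2 was high for Spp1 (96.1 RPM, against 3.36 to 4.62) and Per3 (43.8 RPM, against 28.4 to 30.7).

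For 3 cartilage genes the litter 2 library lay below both litter 1 libraries in controls and above both in mutants. The mutant difference minus the control difference was 2.83 on the log2 scale for Acan (-1.05 in controls, 1.78 in mutants), 2.28 for Col2a1 (-0.69 and 1.59) and 1.95 for Col9a1 (-0.51 and 1.44). The litter-by-genotype term did not pass in any of the 3 (adjusted p = 0.616, 0.616 and 0.716, limma, Benjamini-Hochberg).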

How the results depend on the processing

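The count of 126 genes became 0 without a filter on low values (3479 at an unadjusted p under 0.05), 0 with median-of-ratios scaling, 0 with voom (2987 unadjusted), 4 with upper-quartile scaling, 4 with quantile normalization, 1 with the enamel covariate, 204 with robust eBayes, 458 without the genotype covariate and 762 with Xist as covariate, and 0 to 371 with 1 library left out (76 and 51 without litter 1 controls 1 and 2, 22 without the litter 2 control). Those changes of scaling moved the median of all genes by under 0.1. Over the 4 libraries without Y-linked reads, chosen after seeing the data, it was 1616, the looser rule gave 4442 genes, genes with litters not overlapping numbered 9045, and 11 marker list sums did not overlap. With 1 library left out, the looser rule gave 1331 to 4077 genes (2835 with all 6; 1682 without litter 1 control 2), genes with litters not overlapping went from 5134 to between 5504 and 8545 (8175 without the litter 2 control), the 105 listed genes by the looser rule became 38 to 118 (65 without litter 1 control 2), and the 7 marker list sums became 7 to 11. Without a litter 2 library, the lone one left is assumed to vary like the other groups. The cause of these changes was not tested, beyond the fewer libraries compared.

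Of 1994 values for 100 named genes, 1717 kept direction and side of the threshold, 184 lost the call, 82 gained it and 11 changed sign. Genes named outside these 100, among them Klk4, Mmp20, Sp7 and Dlx3, were not counted. The sign changes were, without the litter 2 mutant, Bglap2 (0.16), Aspn (-0.0062), Col9a1 (-0.51), Col2a1 (-0.69), Acan (-1.05) and Id3 (0.077); without the litter 2 control, Bmpr1a (-0.034), Sox9 (0.14) and Ndrg1 (-0.15); with the enamel covariate, Sox9 (0.021); and over the libraries without Y-linked reads, Bmpr1a (-0.0035). No paired analysis was possible because replicate numbers do not join animals across litters. With 2 libraries in litter 2, a spread between its animals rests on 1 library of each genotype.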

Other observations

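Reads on the X-inactivation transcript Xist differed between the libraries without Y-linked reads: 262 RPM in both litter 1 control 2 and litter 1 mutant 2, 102 RPM in the litter 2 control and 77.8 RPM in the litter 2 mutant. In the libraries with Y-linked reads Xist was at 0.0329 and 0.178 RPM.

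Collagens gave 0 of 9 by the looser rule, with a median of 0.02 (0.39 without the litter 2 control), but 1 was higher without litter 1 control 1 and 1 lower without the litter 2 control or mutant. Replication-dependent histone genes gave 1 of 18 in each direction, with a median of 0.01. Without litter 1 control 1 there were 1 higher and 3 lower. Without litter 1 control 2 or litter 1 mutant 2 there were 0 higher and 1 lower. The imprinted growth network gave 1 of 10, lower, with a median of 0.08, but -0.54 in controls and 0.72 in mutants, and the rule gave 3 higher and 1 lower without the litter 2 control and 0 without the litter 2 mutant. Immediate early genes gave 1 of 10, lower, with a median of 0.02 (-0.23 without the litter 2 mutant, 0.09 without the litter 2 control). By the looser rule 6.5% of all genes were higher and 13.1% lower. The histone, imprinted and immediate early counts stood near those shares. Skeletal muscle and adipocyte markers summed to under 10 RPM in every library, and the mitochondrially encoded genes are listed at 0 in all 6. In osteoclast and neutrophil markers 0 of 3 each met the looser rule. Over the libraries without Y-linked reads, the looser rule gave 1 histone gene higher and 3 lower, 1 imprinted and 1 immediate early gene in each direction, 1 collagen and 1 skeletal muscle gene higher, and 1 osteoclast and 1 sex-linked gene lower.

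The genotype term of the same model gave 0 genes at an adjusted p under 0.05 in limma and 293 at an unadjusted p, beside 3026 for litter.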
